A study of Mus musculus with 12 samples.

Results

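The genes described here were 10 genes of regulatory T cells and of T cell co-stimulation, taken as the table rows named *Foxp3*, *Ctla4*, *Icos*, *Cd28*, *Tnfrsf4*, *Tnfrsf18*, *Tigit*, *Pdcd1*, *Cd274* and *Pdcd1lg2*. All 10 were among the 21247 genes of the count table, and all 10 passed the minimum of 10 counts summed over the libraries. They were measured by RNA-seq of periocular skin from 6-week-old BALB/c mice, with 4 ft/ft and 4 ft/ftMyD88-/- libraries. Both groups were homozygous for the ft allele, a point mutation that disables filaggrin (*Flg*), which helps build the cornified layer of the epidermis, and the ma mutation of the original flaky tail strain had been bred out. The ft/ftMyD88-/- mice also lacked MyD88, the adaptor of toll-like receptors and the IL-1 receptor family, in every cell of the body, so the libraries do not assign an effect to a cell type. The WT samples of the study were not analysed here. A piece of skin mixes all its cells, so for every gene below fewer cells of a type and less RNA per cell cannot be told apart.

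Regulatory T cells restrain immune responses and are kept in their fate by the transcription factor FOXP3. Skin is a tissue with many resident regulatory T cells, which carry CTLA-4, ICOS, OX40 (*Tnfrsf4*), GITR (*Tnfrsf18*) and TIGIT at high levels. Conventional T cells need a co-stimulatory signal beside the one from the T cell receptor. CD28 delivers that signal when it binds CD80 or CD86 on an antigen-presenting cell, and CTLA-4 competes for the same ligands. PD-1 (*Pdcd1*) is an inhibitory receptor that appears on activated T cells, and its ligands are PD-L1 (*Cd274*), which many cell types including keratinocytes can make, and PD-L2 (*Pdcd1lg2*).

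Several of the 10 genes were genomic neighbours. *Cd28*, *Ctla4* and *Icos* lay in this order within 253.9 kb of chromosome 1 (GRCm38.p6, 60746388 to 61000322). *Tnfrsf4* and *Tnfrsf18* lay within 15.3 kb of chromosome 4 (156013595 to 156028894), and *Cd274* and *Pdcd1lg2* within 110.8 kb of chromosome 19 (29362107 to 29472927). *Pdcd1* was on chromosome 1 (94038305 to 94052553), *Tigit* on chromosome 16 (43626137 to 43665125) and *Foxp3* on the X chromosome (7579676 to 7595243). In the GENCODE M21 annotation of GRCm38 the exons of *Foxp3* overlapped those of 4 other genes, and those of *Tnfrsf18* and *Cd274* those of 1 other gene each, so reads there could have been dropped or assigned elsewhere by the authors' counting.

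RefSeq promoter windows of 300 bases, from 250 before to 50 after an annotated start in GRCm38.p6, were at hand for 8 of the 10 genes, with 2 starts for *Foxp3*, and were read because several of these genes differed between the groups. Both strands of 9 windows were searched for AP-1 sites (TGANTCA, in 7.81% of 32851 mouse windows), interferon-gamma activated sites (GAS, TTCNNNGAA, in 8.3%), the core of the interferon-stimulated response element (ISRE core, in 3.44%), a forkhead motif (TGTTTAC, in 3.65%) and the NF-kB consensus (in 8.46%). The windows of *Ctla4*, *Pdcd1*, *Tnfrsf4*, *Tigit* and *Cd274* and the upstream window of *Foxp3* held none of these letters. The 3 windows with a match are shown with the match in capitals, beside that of *Pdcd1*, which had the largest fold change of the 10. The *Foxp3* window was chrX:7580233-7580532 on the plus strand, with a GAS match at -139 from the start. The *Tnfrsf18* window was chr4:156026072-156026371 on the plus strand, with a GAS match at -99. The *Pdcd1lg2* window was chr19:29410669-29410968 on the plus strand, with an NF-kB match at -244. The *Pdcd1* window was chr1:94052504-94052803, read on the minus strand. A match describes the letters in the window and shows no binding.
Foxp3: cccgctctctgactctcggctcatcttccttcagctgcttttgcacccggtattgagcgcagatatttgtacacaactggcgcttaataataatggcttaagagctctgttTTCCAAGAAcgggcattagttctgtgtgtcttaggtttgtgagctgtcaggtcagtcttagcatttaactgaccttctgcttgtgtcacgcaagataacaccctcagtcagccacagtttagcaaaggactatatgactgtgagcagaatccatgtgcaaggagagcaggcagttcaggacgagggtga
Tnfrsf18: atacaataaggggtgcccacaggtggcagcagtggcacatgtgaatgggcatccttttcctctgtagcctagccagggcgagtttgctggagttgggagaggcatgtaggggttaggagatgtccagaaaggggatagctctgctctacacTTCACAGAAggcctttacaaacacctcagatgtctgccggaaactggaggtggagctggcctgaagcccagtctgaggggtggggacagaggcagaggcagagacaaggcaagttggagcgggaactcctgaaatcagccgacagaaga
Pdcd1lg2: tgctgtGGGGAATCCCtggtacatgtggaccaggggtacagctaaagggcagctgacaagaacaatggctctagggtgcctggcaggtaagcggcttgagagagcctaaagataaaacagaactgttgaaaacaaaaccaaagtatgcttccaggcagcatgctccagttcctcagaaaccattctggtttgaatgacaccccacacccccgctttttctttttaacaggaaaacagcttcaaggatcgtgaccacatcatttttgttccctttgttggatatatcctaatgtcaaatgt
Pdcd1: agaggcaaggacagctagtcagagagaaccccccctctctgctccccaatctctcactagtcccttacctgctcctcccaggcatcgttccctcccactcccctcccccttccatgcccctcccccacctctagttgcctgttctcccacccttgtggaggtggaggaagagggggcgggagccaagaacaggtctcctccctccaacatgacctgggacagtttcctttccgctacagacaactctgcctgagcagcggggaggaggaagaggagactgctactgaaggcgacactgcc

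Libraries held 15802957 to 29255129 counts. Levels are given as CPM, counts normalised to the library total after edgeR's TMM scaling, and 3 counts, the most that a library listed at 0 allows, were worth 0.102 to 0.183 CPM. Counts and floors cover counting error only. *Myd88* itself stood at 25.4 to 36.5 CPM in ft/ft and at 32.2 to 48.8 CPM in ft/ftMyD88-/-, so its count did not check the labels. A gene count does not show whether an exon was deleted, so every direction rests on the labels. The labels give female mice, but the 4 ft/ft libraries together held 1 count of *Xist*, which females transcribe from the silenced X chromosome, against 567 to 1964 in each ft/ftMyD88-/- library, and the Y-linked *Ddx3y* had 1095 to 1864 against 0 to 11. These libraries therefore differed in sex as well as in genotype, and the 2 cannot be told apart in any comparison below. *Foxp3* is an X-linked gene, and whether sex bore on its level was not tested. Of 534 tested X-linked genes 7.87% were called higher and 15.2% lower in ft/ftMyD88-/-, with a median log2 fold change of -0.10. For 15261 genes of the other chromosomes without Y these values were 12.6%, 14.4% and 0.00.

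The comparison of ft/ftMyD88-/- with ft/ft asked which of these genes differed where MyD88 was missing. *Pdcd1*, *Icos* and *Foxp3* were higher in ft/ftMyD88-/- skin, by 9.0-fold, 3.90-fold and 2.12-fold. *Ctla4* and *Tigit* stood more than 2-fold higher on average without passing the test, *Cd28* and *Pdcd1lg2* were less than 2-fold apart, and *Tnfrsf4* and *Tnfrsf18* had the smallest fold changes, all 4 short of the test. *Cd274* was the only member with a negative fold change and did not pass. By edgeR's quasi-likelihood test, with p adjusted by Benjamini-Hochberg over 20454 genes, 3 of the 10 genes were called higher at an adjusted p under 0.05, where 10.9% of all genes tested were. None was called lower, where 12.3% of all genes were, and at an unadjusted p under 0.05 *Cd274* alone was lower and 6 genes were higher, where 18.5% and 18.4% of all genes were. DESeq2 and limma voom also called none lower, where 2777 of 18865 and 2490 of 20454 genes were. The libraries of 4 genes, *Pdcd1*, *Icos*, *Foxp3* and *Tigit*, did not overlap between the groups and were higher in ft/ftMyD88-/-, which held for 12.5% of all genes. The median log2 fold change of the 10 genes was 0.88, and that of all genes tested 0.01.

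**Figure D1:**
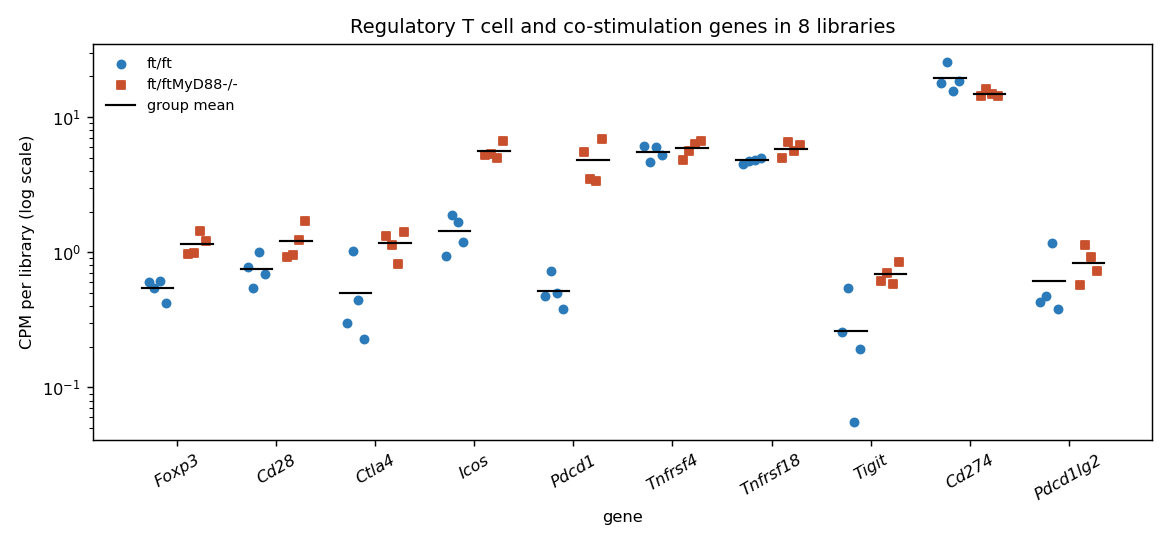
Level of the 10 genes in each library in CPM on a log scale, with ft/ft libraries as circles, ft/ftMyD88-/- libraries as squares and the mean of the 4 libraries of a group as a bar. The groups lie apart for Pdcd1, Icos, Foxp3 and Tigit and overlap for the other 6 genes.

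**Figure D2:**
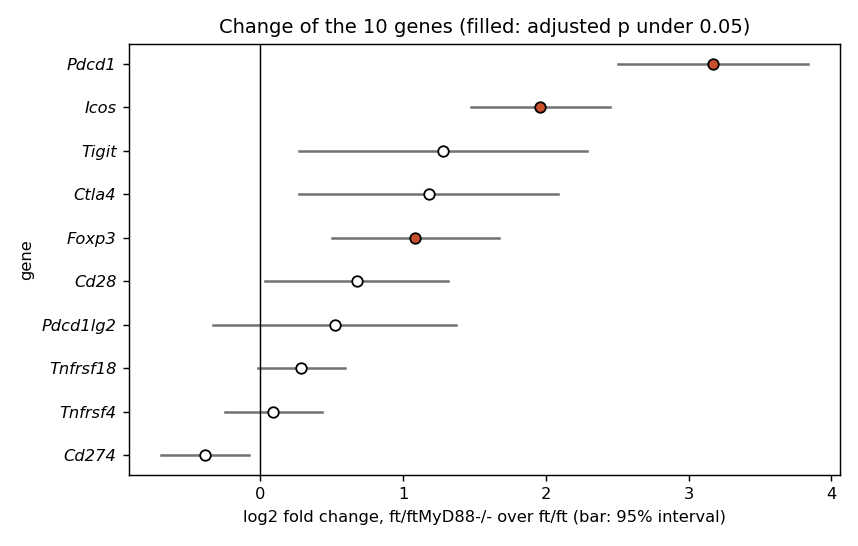
Log2 fold change of each gene in ft/ftMyD88-/- over ft/ft from edgeR's quasi-likelihood test, with its 95% interval as a bar. Filled points mark an adjusted p under 0.05, which Pdcd1, Icos and Foxp3 reached.

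*Foxp3*, which specifies regulatory T cells, was a gene of few counts. Replicates 1 to 4 of ft/ft held 14, 15, 11 and 11 of them, those of ft/ftMyD88-/- 22, 27, 42 and 20, or 0.600, 0.546, 0.614 and 0.422 against 0.964, 0.992, 1.43 and 1.22 CPM. Every ft/ftMyD88-/- library was above every ft/ft library. The mean rose from 0.545 ± 0.0874 to 1.15 ± 0.218 CPM (SD, n = 4 each), which gave a log2 difference of 1.08 ± 0.269 (SE, adjusted p = 0.0128 by edgeR). With each library left out in turn the log2 fold change lay between 0.96 and 1.16 and the call was kept in all 8 fits. The 5 genes of at least 50 mean counts whose log2 CPM followed *Foxp3* most closely over the 8 libraries were *Mterf3*, *RP23-52N2.1*, *Haus6*, *Wrb* and *RP24-562O19.4*, with Pearson r from 0.97 to 0.98 among 13508 genes compared. This is a description over libraries that share their group and depth.

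Among the CD28 family of receptors *Pdcd1* rose most. Its counts were 11, 20, 9 and 10 in the ft/ft replicates, as opposed to 126, 94, 99 and 113 in ft/ftMyD88-/-, or 0.472, 0.727, 0.502 and 0.383 against 5.52, 3.45, 3.37 and 6.89 CPM. The lowest ft/ftMyD88-/- library lay far above the highest ft/ft library. Means were 0.521 ± 0.146 and 4.81 ± 1.71 CPM (SD, n = 4 each), which gave a log2 difference of 3.17 ± 0.307 (SE, adjusted p = 6.44e-05 by edgeR).

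*Icos* encodes the inducible co-stimulator, which T cells put on their surface after activation and which binds ICOS ligand. The ft/ft replicates held 22, 52, 30 and 31 counts, those of ft/ftMyD88-/- 120, 145, 147 and 110. The 4 ft/ft libraries lay between 0.943 and 1.89 CPM and the 4 ft/ftMyD88-/- libraries between 5.0 and 6.71 CPM, without overlap. The log2 fold change was 1.96 ± 0.224 (SE, adjusted p = 1.72e-04 by edgeR). *Pdcd1* and *Icos* kept their calls under all 15 alternative settings, with log2 fold changes from 2.97 to 3.40 and from 1.81 to 2.14.

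*Ctla4*, the inhibitory counterpart of CD28, was read 7, 28, 8 and 6 times in the ft/ft replicates and 30, 31, 24 and 23 times in those of ft/ftMyD88-/-, or 0.300, 1.02, 0.446 and 0.230 against 1.31, 1.14, 0.817 and 1.4 CPM. Replicate 2 was the high library of the ft/ft group and lay within the range of ft/ftMyD88-/-, so the groups overlapped. The log2 fold change was 1.18 ± 0.416 (SE, adjusted p = 0.0594 by edgeR). Without ft/ft replicate 2 it was 1.85 and passed (edgeR adjusted p = 0.00546), as it did without ft/ftMyD88-/- replicate 3 (1.34, edgeR adjusted p = 0.0483). DESeq2 and limma voom called it on all 8 libraries (adjusted p = 0.032 and 0.0424).

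*Cd28*, the main co-stimulatory receptor, was read 18, 15, 18 and 18 times in the ft/ft replicates and 21, 26, 36 and 28 times in those of ft/ftMyD88-/-. Levels of 0.546 to 1.00 CPM in ft/ft overlapped those of 0.920 to 1.71 in ft/ftMyD88-/- (log2 fold change 0.67 ± 0.295 SE, adjusted p = 0.118 by edgeR). Within a library, *Icos* counts were 1.22 to 3.47 times those of *Cd28* in ft/ft and 3.93 to 5.71 times in ft/ftMyD88-/-, and *Pdcd1* counts were 0.50 to 1.33 and 2.75 to 6.00 times those of *Cd28*, without overlap in either case. The ratio of *Ctla4* to *Cd28* overlapped, at 0.333 to 1.87 and 0.667 to 1.43. A ratio of counts within a library does not depend on how libraries are scaled.

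*Tigit*, an inhibitory receptor that competes with CD226 for nectin ligands, was the gene with the fewest counts. The ft/ft replicates held 6, 15, 1 and 5 counts, those of ft/ftMyD88-/- 14, 19, 17 and 14, or 0.257, 0.546, 0.0558 and 0.192 against 0.613, 0.698, 0.578 and 0.854 CPM. The groups did not overlap, but the highest ft/ft library, replicate 2, and the lowest ft/ftMyD88-/- library were close together, and ft/ft replicate 3 was under the floor of 3 counts. The log2 fold change was 1.28 ± 0.465 (SE, adjusted p = 0.0657 by edgeR). Without ft/ft replicate 2 it was 1.92 (edgeR adjusted p = 0.0144), and DESeq2 and limma voom called it on all 8 libraries (adjusted p = 0.0424 and 0.0448).

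The receptors of the TNF receptor family, which promote T cell survival and expansion, did not pass the test. *Tnfrsf4* (OX40) stood at 6.09, 4.69, 6.02 and 5.21 CPM in ft/ft and 4.78, 5.62, 6.33 and 6.71 in ft/ftMyD88-/-, with the groups almost fully overlapping. Its log2 fold change was 0.09 ± 0.156 (SE, adjusted p = 0.719 by edgeR), with a 95% interval from -0.25 to 0.43. *Tnfrsf18* (GITR) stood at 4.50, 4.76, 4.85 and 4.98 CPM in ft/ft and 4.95, 6.54, 5.61 and 6.22 in ft/ftMyD88-/-. Only the lowest ft/ftMyD88-/- library fell within the ft/ft range, and the log2 fold change was 0.29 ± 0.141 (SE, adjusted p = 0.162 by edgeR), with a 95% interval from -0.02 to 0.59.

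Neither PD-1 ligand passed the test. *Cd274* was read 414, 703, 281 and 486 times in the ft/ft replicates and 325, 439, 436 and 234 times in those of ft/ftMyD88-/-, or 17.7, 25.6, 15.7 and 18.6 against 14.2, 16.1, 14.8 and 14.3 CPM. The groups overlapped only through ft/ft replicate 3 and ft/ftMyD88-/- replicate 2. The log2 fold change was -0.39 ± 0.142 (SE, adjusted p = 0.0683 by edgeR). Without ft/ft replicate 3 it was -0.47 and passed (edgeR adjusted p = 0.0398), and without ft/ft replicate 2 it was -0.22 (edgeR adjusted p = 0.183). *Pdcd1lg2* was read 10, 13, 21 and 10 times in the ft/ft replicates and 13, 31, 27 and 12 times in those of ft/ftMyD88-/-, at 0.383 to 1.17 and 0.570 to 1.14 CPM. Its groups overlapped widely (log2 fold change 0.52 ± 0.391 SE, adjusted p = 0.368 by edgeR), with a 95% interval from -0.33 to 1.37.

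Levels of different genes were compared as CPM per kb of annotated exon. This takes counts to grow with exon length, which was not tested and need not hold for the fixed-tissue protocol in the labels. The order depends on this division. By CPM alone *Tigit* had the lowest ft/ft mean (0.263) and *Cd28* stood at 0.753. In ft/ft the order was led by *Cd274* at 5.36 ± 1.18 CPM per kb, *Tnfrsf4* at 4.03 ± 0.492 and *Tnfrsf18* at 3.13 ± 0.134 (SD, n = 4 each). The remaining genes followed at a distance, from *Icos* at 0.415 ± 0.127 through *Pdcd1lg2* (0.313), *Tigit* (0.286), *Pdcd1* (0.270), *Ctla4* (0.214) and *Cd28* (0.123) to *Foxp3* at 0.119 ± 0.0191. Each pair of neighbours in this order overlapped in range except *Tnfrsf4* and *Tnfrsf18*, and *Tnfrsf18* and *Icos*. In ft/ftMyD88-/- *Tnfrsf4* (4.29 ± 0.623), *Cd274* (4.11 ± 0.244) and *Tnfrsf18* (3.83 ± 0.46) overlapped one another, and *Pdcd1* (2.49 ± 0.885) and *Icos* (1.63 ± 0.224) followed with overlapping ranges, the highest *Pdcd1* library within the range of *Tnfrsf18*. *Tigit* stood at 0.746, *Ctla4* at 0.501, *Pdcd1lg2* at 0.428, *Foxp3* at 0.252 and *Cd28* at 0.196 CPM per kb. Of these, *Ctla4* and *Pdcd1lg2*, *Pdcd1lg2* and *Foxp3*, and *Foxp3* and *Cd28* overlapped, while *Icos* and *Tigit*, and *Tigit* and *Ctla4*, did not overlap. By CPM per kb *Pdcd1* stood at place 7 of 10 in ft/ft and at place 4 in ft/ftMyD88-/-.

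T cell transcripts moved with these genes. Of 16 T cell markers 12 were called higher in ft/ftMyD88-/- and the other 4 did not pass, with a median log2 fold change of 0.89. The number called higher was 8 to 12 with each library left out in turn. Their summed level was 84.5 to 101 CPM in ft/ft and 111 to 133 in ft/ftMyD88-/-, without overlap. This sum follows mainly *Bcl11b*, with 11586 counts over the 8 libraries against 39 to 1975 for each other marker. Which cells of the skin held *Bcl11b* was not tested. The chains of the CD3 complex, which carries the T cell receptor signal, were *Cd3d* (log2 fold change 1.04, edgeR adjusted p = 0.0215), *Cd3e* (0.78, edgeR adjusted p = 0.0132) and *Cd3g* (0.57, edgeR adjusted p = 0.0167), whose calls were kept under 12, 15 and 14 of the 15 alternatives. *Cd4* rose by 0.88, *Trac* of the alpha beta receptor by 1.11 and *Trdc* of the gamma delta receptor by 0.91 on the log2 scale. *Cd8a*, the co-receptor of cytotoxic T cells, had 9 counts over the 4 ft/ft libraries and 100 over the 4 ft/ftMyD88-/- libraries (log2 fold change 3.41 ± 0.527 SE, adjusted p = 9.71e-04 by edgeR). *Cd6* (1.74), *Trbc1* (1.39) and *Cd2* (1.00) were also called higher.

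The 8 members found on T cells were therefore set against the summed counts of *Cd3d*, *Cd3e* and *Cd3g* of the same library, as a description with no test. That sum follows mainly *Cd3g*, with 1777 counts over the 8 libraries against 531 for *Cd3d* and 340 for *Cd3e*. *Pdcd1* had 3.82, 8.26, 4.15 and 3.86 counts per 100 CD3 counts in the ft/ft replicates and 36.4, 23.2, 18.1 and 32.9 in ft/ftMyD88-/-. *Icos* had 7.64, 21.5, 13.8 and 12.0 against 34.7, 35.7, 26.9 and 31.98. Both were apart between the groups on this scale too. *Tnfrsf4* went the other way, with 49.3, 53.3, 49.8 and 52.5 per 100 in the ft/ft replicates and 31.5, 37.7, 34.1 and 31.98 in ft/ftMyD88-/-, again without overlap. *Foxp3* had 4.25 to 6.20 against 5.81 to 7.69, and *Cd28* 6.20 to 8.30 against 6.07 to 8.14, with overlap. *Tnfrsf18*, *Ctla4* and *Tigit* overlapped as well. With *Trac* as the denominator *Foxp3* had 44.0 to 66.7 and 37.5 to 65.6 counts per 100, and *Tnfrsf18* no longer overlapped, at 395.5 to 520.0 and 247 to 297. On the *Trac* scale *Icos* had 104.8 to 200 counts per 100 in ft/ft and 201.4 to 315.8 in ft/ftMyD88-/-. Its groups did not overlap there but almost touched. *Pdcd1* stayed apart, at 40 to 76.92 in ft/ft and 130.6 to 331.6 in ft/ftMyD88-/-. *Tnfrsf4* and *Tnfrsf18* exceeded *Trac* several-fold in counts, and which cells of the skin held these transcripts was not tested.

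**Figure D3:**
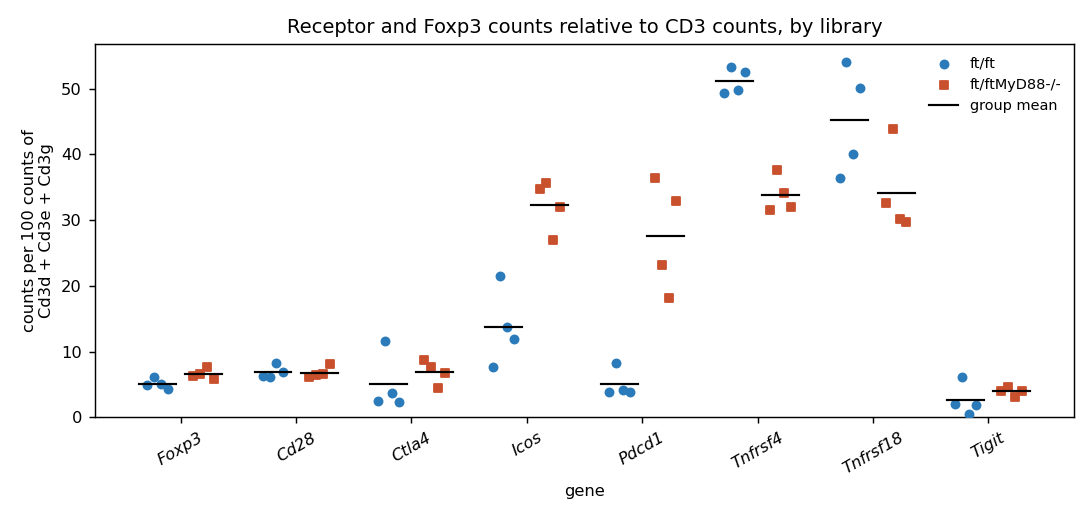
Counts of the 8 T cell members per 100 summed counts of Cd3d, Cd3e and Cd3g in each library, with ft/ft as circles, ft/ftMyD88-/- as squares and group means as bars. Pdcd1 and Icos lie higher and Tnfrsf4 lower in ft/ftMyD88-/- without overlap, and the other 5 genes overlap.

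Of 14 co-stimulation ligands and partners 6 were called higher in ft/ftMyD88-/- and the other 8 did not pass. CD80 and CD86, which bind CD28 and CTLA-4, were among them, with *Cd80* at 0.716 ± 0.249 in ft/ft and 1.41 ± 0.241 CPM in ft/ftMyD88-/- (log2 fold change 0.95, edgeR adjusted p = 0.0327) and *Cd86* at 6.16 ± 0.73 and 8.73 ± 1.71 (0.50, edgeR adjusted p = 0.044; SD, n = 4 each). *Icosl*, the ligand of ICOS, rose from 10.6 ± 1.48 to 15.5 ± 1.82 CPM (0.55, edgeR adjusted p = 0.0119). *Vtcn1*, an inhibitory B7 protein, *Cd40* of antigen-presenting cells and *Tnfsf14* were the other 3, with log2 fold changes of 1.02, 0.95 and 0.88. The OX40 ligand *Tnfsf4* had 11 counts over each group, and the GITR ligand *Tnfsf18* had 53 and 86 (edgeR adjusted p = 0.151). Of the nectins bound by TIGIT, *Pvr* (0.20), *Nectin2* (-0.15, listed under its older symbol *Pvrl2*) and *Nectin3* (-0.45) did not pass. Over the 15 alternatives the calls of *Icosl*, *Vtcn1* and *Cd40* were kept in all, that of *Cd80* in 11, *Tnfsf14* in 9 and *Cd86* in 7. The list's count fell to 3 without ft/ft replicate 2, ft/ftMyD88-/- replicate 2 or ft/ftMyD88-/- replicate 4.

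Among 15 other receptors of this kind 5 were called higher and 1 lower. *Btla*, an inhibitory receptor, rose from 0.455 ± 0.219 to 2.11 ± 0.312 CPM (log2 fold change 2.25 ± 0.32 SE, adjusted p = 6.25e-04 by edgeR). *Cd226*, the activating receptor that shares ligands with TIGIT, rose from 0.812 ± 0.452 to 2.97 ± 0.709 CPM (1.92 ± 0.334 SE, adjusted p = 0.00194 by edgeR). *Tnfrsf9* (4-1BB, 1.49), *Tnfrsf14* (the partner of BTLA, 1.03) and *Havcr2* (TIM-3, 0.96) completed the 5, and *Cd96* did not pass (-0.04). *Cd27*, named after its value was seen, was the lower one (log2 fold change -0.74, edgeR adjusted p = 0.0476), a call kept under only 3 of 15 alternatives, namely filterByExpr, no filter and without ft/ft replicate 2, with adjusted p from 0.0388 to 0.112 over the 15.

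Among 23 further genes associated with regulatory T cells, 8 were called higher, 2 lower and 13 did not pass. *Il2ra*, the high-affinity IL-2 receptor chain that regulatory T cells carry, rose from 1.82 ± 0.392 to 4.76 ± 0.466 CPM (log2 fold change 1.39 ± 0.192 SE, adjusted p = 5.27e-04 by edgeR). *Batf*, a transcription factor of effector and tissue T cells, rose by 1.55, *Areg* (amphiregulin) by 1.34, *Il2rb* by 0.97 and the chemokine receptor gene *Ccr8* by 1.03 on the log2 scale. *Nt5e* (CD73) fell by 0.61 and *Ikzf2* (Helios) fell by 0.44 on that scale. The suppressive cytokine gene *Il10* had 5 counts over the ft/ft and 13 over the ft/ftMyD88-/- libraries, and *Tgfb1* stood at 37.6 ± 4.67 and 40.9 ± 2.68 CPM (edgeR adjusted p = 0.421). Many genes of this list are also made by other skin cells. The call of *Ikzf2* was kept under 11 and that of *Ccr8* under 7 of the 15 alternatives. The count of 8 fell to 5 without ft/ft replicate 3, ft/ft replicate 4 or ft/ftMyD88-/- replicate 4. Of 20 signalling genes downstream of CD28 and the T cell receptor 8 were called higher and 2 lower. *Zap70* (1.18), *Ptpn22* (1.03), *Lck* (1.03), *Lat* (0.94) and *Vav1* (0.76), which act close to the receptor, had the lowest adjusted p-values.

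**Figure D4:**
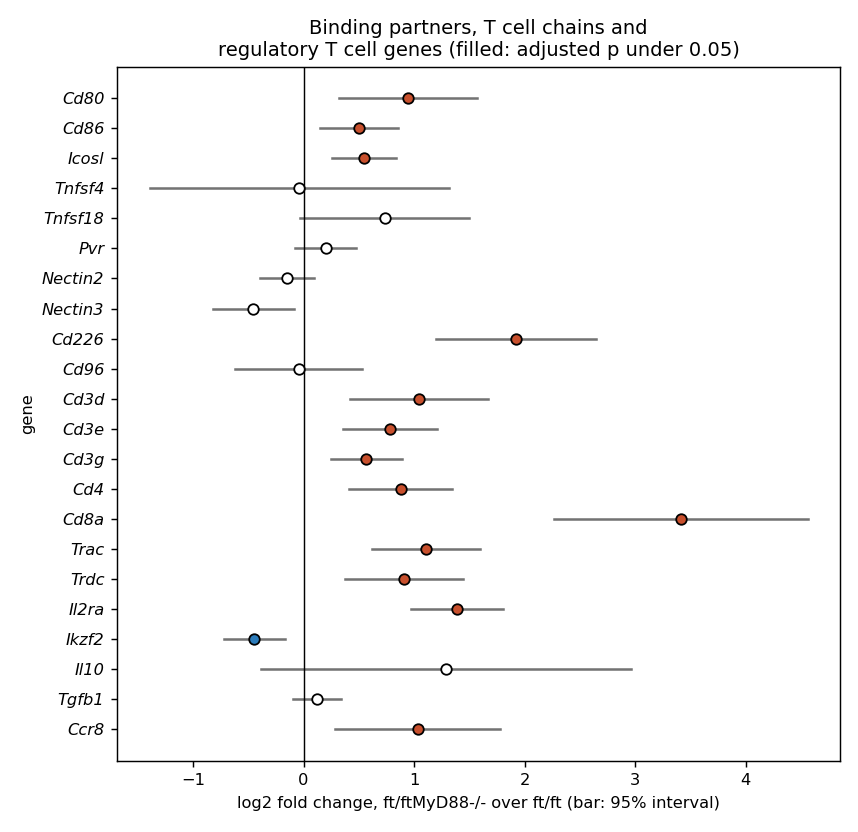
Log2 fold change in ft/ftMyD88-/- over ft/ft with its 95% interval for binding partners of the 10 genes, T cell receptor and co-receptor genes and regulatory T cell genes. Filled points mark an edgeR adjusted p under 0.05, with Ikzf2 the only one called lower among the genes drawn.

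Markers of other cells also differed between the same libraries, and their part in the values above was not tested. Gamma delta T17 markers were called higher for 6 of 10 genes and lower for 1. Natural killer and cytotoxic markers were called higher for 4 of 8 and lower for 1, at a summed 3.56 to 6.58 in ft/ft and 4.21 to 9.49 CPM in ft/ftMyD88-/-, and higher for 1 of 8 without ft/ft replicate 4 or ft/ftMyD88-/- replicate 4 and for 2 without ft/ftMyD88-/- replicate 2. B cell markers were near 0, at 0.514 to 1.27 and 0.551 to 2.10 CPM summed over 7 genes, and none of the 5 tested was called. Dendritic and Langerhans cell markers were higher for 5 of 10 and lower for 1 (371 to 480 against 364 to 520 CPM), macrophage and monocyte markers higher for 3 of 10 (328 to 461 against 390 to 589) and mast cell markers for 1 of 7 (110 to 140 against 105 to 174). With single libraries left out these 3 counts ran from 2 to 5, 2 to 3 and 1 to 3, the dendritic count being 2 without ft/ftMyD88-/- replicate 2 or 4 and the mast cell count 3 without ft/ftMyD88-/- replicate 1. Neutrophil markers were called higher for 1 of 6 genes, 0 to 3 with single libraries left out. They summed to 21.7 to 36.5 CPM in 3 ft/ft libraries, 250.2 in ft/ft replicate 2 and 399 to 959 in ft/ftMyD88-/-. This sum follows mainly *S100a8* and *S100a9*, with 24316 and 37770 counts over the 8 libraries against 20 to 3381 for each other gene. Which cells of the skin held these 2 transcripts was not tested. The same ft/ft replicate 2 had the highest ft/ft level of *Ctla4*, *Icos*, *Pdcd1*, *Tigit* and *Cd274*, which are 5 of the 10 members. The share of all genes that were highest in that library was not computed, so this count has no background to be read against. Keratinocyte markers were lower for 3 of 8 genes and skeletal muscle markers for 9 of 10, with summed muscle levels of 8968 to 12130 CPM in ft/ft and 3430 to 6624 in ft/ftMyD88-/-.

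The choice of scaling bore on how many of the genes were called. Without TMM, with libraries scaled by their totals only, the median log2 fold change of all genes moved up by 0.177, and the share of calls that were higher went from 47.0% to 77.8%. Under that scaling 7 of the 10 genes were called higher, where 4638 of 20454 genes tested were. *Ctla4* (1.35), *Tigit* (1.46), *Cd28* (0.85) and *Tnfrsf18* (0.46) were added to *Pdcd1*, *Icos* and *Foxp3*. Each of the 10 genes kept the sign of its fold change under all 15 settings. The plot of all settings shows *Pdcd1*, *Icos* and *Foxp3* past the threshold throughout.

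**Figure D5:**
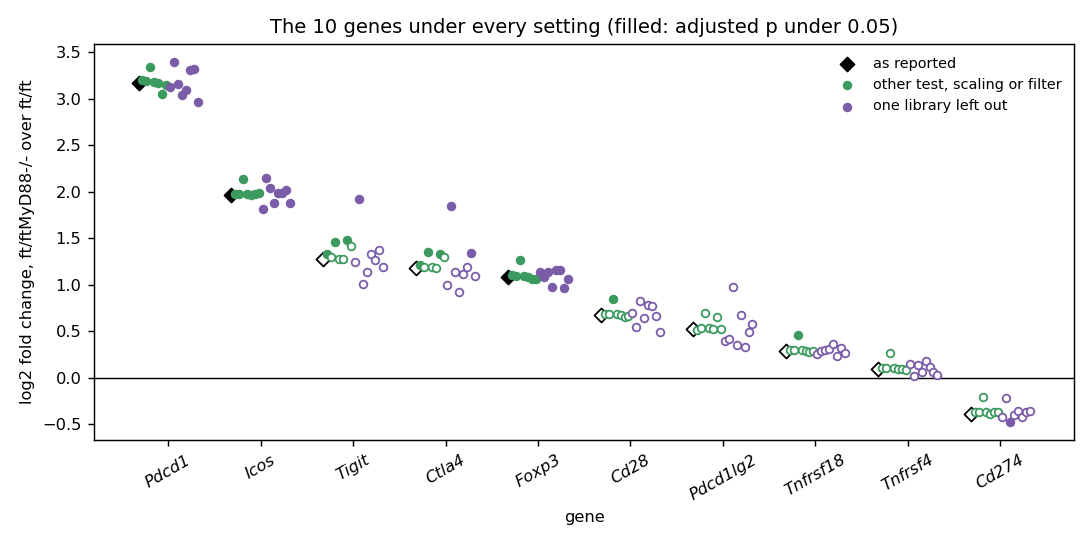
Log2 fold change of each gene in ft/ftMyD88-/- over ft/ft as reported (diamond) and under 15 other settings (circles), of which 8 leave out a library. Filled points have an adjusted p under 0.05, and Pdcd1, Icos and Foxp3 are filled at every setting.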

How the data were processed

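RNA-seq counts of periocular skin were compared between 4 ft/ft and 4 ft/ftMyD88-/- libraries. The 4 WT samples were not analysed here. The authors deposited raw counts per gene without normalization. Per the study's methods, polyA-selected TruSeq libraries were sequenced, HISAT and tophat2 placed the reads on GRCm38.p6, and HTSeq counted them at default parameters, whereas the 8 samples' labels instead give total RNA, a fixed-tissue protocol and Cell Ranger. Versions and the strand setting are not given in the sources used here. Genes with at least 10 counts in sum (20454) were fitted in R 4.3.3 with edgeR 4.0.16 (glmQLFit, robust, TMM scaling, no covariate), two-sided, with Benjamini-Hochberg adjustment at 0.05. Standard errors came from the log2 fold change and F.

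Values per library are CPM on TMM-scaled totals (log2 CPM with a prior count of 2). The 10 members and all lists were chosen with earlier results of these data known. Named were the members, their binding partners, the CD3 chains, *Cd4*, *Cd8a*, *Trac*, *Trdc*, *Il2ra*, *Ikzf2*, *Il10*, *Tgfb1* and *Ccr8*, in each list at most the 5 genes of lowest adjusted p, the label checks, and the 5 genes most like *Foxp3*. *Bcl11b*, *S100a8* and *S100a9* were named for their high counts after their values were seen. Of the listed genes, *Nectin2* and *Cd244a* were found under older symbols through RefSeq synonyms, and *Gpr83*, *Ly6g* and *Retnlg* were not analysed here. Positions and promoters are RefSeq GRCm38.p6, exon lengths GENCODE M21. Alternatives were DESeq2 1.42.0, RLE, library size only, filterByExpr, no filter, limma voom (limma 3.58.1), the replicate number as a block and each library left out. On simulated data with 200 of 20454 genes changed 4-fold, that is by 2 on the log2 scale, the fit called 193 of the 200 and 7 unchanged genes. The changed genes averaged at least 10 counts per library, with as many raised as lowered. Smaller changes, rarer genes and unbalanced changes were not tried. For every pair of libraries of a group, chi-square over its degrees of freedom was 15.1 or more, which marks none as a repeat deposit. With 4 mice per group in the study, p-values measure the spread between these libraries.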

Additional observations from a re-analysis of the deposited data

Results flagged for a closer look

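*Pdcd1lg2* in ft/ft replicate 3 stood at 1.17 CPM (21 counts) against 0.383 to 0.473 in the other 3 ft/ft libraries, a gap of 0.887 of the group's range, past Dixon's 95% limit for 4 samples. Of 20 groups of 4 libraries examined over the 10 genes, this was the 1 that passed, and chance flags about 1 in 20. Without that library the log2 fold change of *Pdcd1lg2* was 0.98 in place of 0.52 (edgeR adjusted p = 0.0723).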

How the results depend on the processing

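Of the 10 genes, 3 were called higher as reported, where 2239 of 20454 genes tested were. DESeq2 called 5 (of all genes 2865 of 18865), limma voom 5 (2193 of 20454) and library size only 7 (4638 of 20454). With each library left out 3 to 5 were called higher. The call lower ran from 0 to 1 with each library left out. The 1 was *Cd274* without ft/ft replicate 3, where 1973 of 20300 genes tested were called lower. Over all genes, 2239 were called higher and 2525 lower as reported, and 4638 and 1326 with library size only. Leaving out each library gave 1464 to 2260 called higher, lowest without ft/ft replicate 4. All of these fits used fewer libraries. The cause of these moves was not tested. Groups share the replicate numbers 1 to 4. Deviations of same-numbered libraries from their group means correlated at -0.349 to 0.0719 over 13508 genes, and those of different-numbered libraries at -0.324 to 0.217. This showed no pairing by number, and with 4 libraries per group it could not exclude one. With the replicate block, 1895 genes were called higher, 2144 lower and 3 of the 10 genes higher. With *Trac* in place of CD3, the log2 ratio between groups moved down by the same amount for every T cell member, since they share the denominator. It went from 0.39 to -0.01 for *Foxp3*, from -0.02 to -0.42 for *Cd28* and from -0.60 to -1.002 for *Tnfrsf4*. For *Tnfrsf18* it went from -0.41 to -0.81, for *Ctla4* from 0.75 to 0.35 and for *Tigit* from 1.10 to 0.70. *Icos* went from 1.32 to 0.92 and *Pdcd1* from 2.49 to 2.09. Low counts limit *Foxp3*, *Ctla4*, *Cd28*, *Tigit*, *Pdcd1* and *Pdcd1lg2*, which had 27 to 69 counts summed over the 4 ft/ft libraries.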
